A study of Triticum aestivum with 4 samples.

Results

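The spring green-up library was compared with the three-leaf library of winter wheat leaves, which sets the leaf miRNAs after winter against those before it. Both libraries came from a small RNA time course of 4 stages, and their choice used the stage labels and no expression value. All 371 known miRNAs listed for the series and all 82 predicted miRNAs were included, and 2 of the 4 libraries were compared. The cultivar was Shimai 22, a wheat that the study describes as semi-winter. It was sown in the field in autumn, left untreated and sampled as top leaves under natural weather. The three-leaf leaves were taken 23 days after sowing and the spring green-up leaves 155 days after sowing. The other libraries, winter dormancy at 98 days and jointing at 192 days, are given only as values beside a miRNA.

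RNA of 3 replicates was pooled into 1 library per stage. No test between stages was therefore possible, and the spread between plants is unknown. Plant age, season, temperature, day length and leaf position differ together between these stages and cannot be told apart. In whole leaves, fewer cells of a type and less RNA per cell cannot be told apart either, and a miRNA table holds no cell type marker against which the leaf label could be checked.

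Plant miRNAs are short RNAs cut from hairpin transcripts that guide an ARGONAUTE protein to near-complementary mRNAs, which are then cleaved or held from translation. Many conserved families target transcription factors of leaf growth, hormone response and flowering. Winter wheat must pass a long cold period, called vernalization, before it can flower. Spring green-up is the stage at which leaf growth resumes, before stem elongation at jointing. The study also calls it the double ridge stage.

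Expression is given as TPM, here tags of 1 miRNA per 1000000 reads mapped to the genome. A single read was worth 0.0493 TPM in three-leaf leaves and 0.0552 TPM at green-up. A level of 5 TPM thus stood for 102 reads in three-leaf leaves (exact 95% Poisson interval 4.10 to 6.10 TPM) and for 91 reads at green-up (4.04 to 6.16 TPM). Ratios carry exact 95% binomial intervals computed from these reads. They cover counting error only, since PCR copies are not independent molecules. A miRNA was called higher or lower when it differed more than 2-fold and had more than 5 TPM in at least 1 of both libraries.

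The sequences of the miRNAs on which the comparison turned are shown first, 5′ to 3′, with the seed (bases 2 to 8) in capitals. Those of miR168, miR159 and miR319 are shown because they carry most of the change in total or in ratio, and those of miR156 and miR5200 because their families act in phase change and flowering.
miR168a-5p: uCGCUUGGugcagaucgggac
miR159a.1: uUUGGAUUgaagggagcucug
miR319b-3p: uUGGACUGaagggugcucccu
miR319c: cUUGGACUgaagggagcucccu
miR156a-5p: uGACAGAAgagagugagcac
miR5200a-3p: uGUAGAUAcucccuaaggcuu
miR5200-5p: aAGCCUUAgugaauaucuaca
The next group holds some of the larger ratios upward and the names miR165a-5p and miR165a-3p, which went in opposite directions. It also holds the most abundant miRNA listed at 0 in each library.
miR160a-5p: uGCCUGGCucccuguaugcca
miR165a-5p: cCGAAUUGuagucuggagaggcg
miR165a-3p: uCGCACCAggcaucacucccc
miR528-5p: uGGAAGGGgcaugcagaggag
miR530-5p: cUGCAUUUgcaccugcaccua
miR530-3p: aGGUGCAGuggcauaugcaac
miR2111a-3p: gUCCUCGUguugcauucccu
miR2275b-5p: cUUGGAGGaaaaacaaagcca

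Among the known miRNAs, the spring green-up leaves held more miR160, miR528, miR530 and miR394 and less miR159, miR319 and miR5200 than the three-leaf leaves. miR168, the most abundant family, was also higher but within 2-fold. Of 222 known miRNAs above 5 TPM in at least 1 of both libraries, 44 (19.8%) were higher at green-up, 60 (27%) were lower and 118 lay within 2-fold. A listed 0 stood behind 22 of the higher and 28 of the lower calls. Among the 103 that were listed in both libraries and exceeded 50 TPM in 1 of them, 11 were higher, 21 were lower and 71 lay within 2-fold. The median log2 ratio of the 197 known miRNAs listed in both libraries was -0.11. Scaling to the total without miR168 turned the split to 78 higher and 41 lower.

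**Figure D1:**
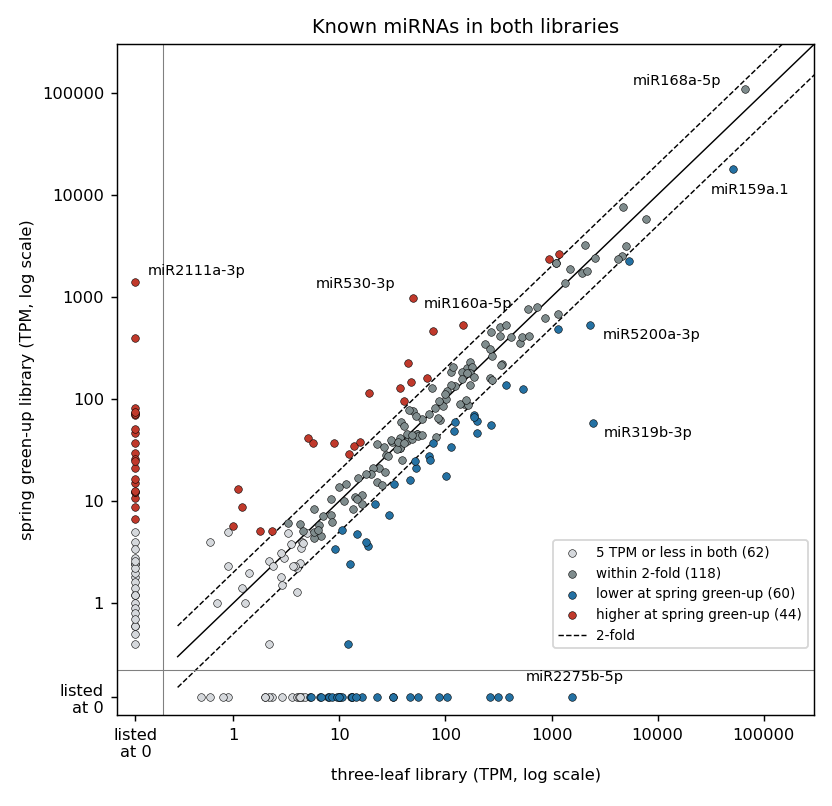
TPM of each known miRNA in the three-leaf library (x axis) and the spring green-up library (y axis), both on log scales, with miRNAs listed at 0 set apart beyond the grey lines; 87 miRNAs listed at 0 in both libraries are not drawn. The 60 lower miRNAs (blue) lie below the lower dashed 2-fold line, the 44 higher ones (red) above the upper line, and miR168a-5p and miR159a.1 are the 2 most abundant in either library.

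The pool of known miRNAs was dominated by miR168 and miR159 at both stages, and their order spread apart. miR168 targets AGO1, the main ARGONAUTE of the miRNA pathway, and miR159 targets GAMYB transcription factors, which act in gibberellin response and anther development. The miR168 family sum was 70790.5 TPM in three-leaf leaves and 116994 TPM at green-up, a ratio of 1.65 (1.65 to 1.66) that was within 2-fold. Its share of the summed known TPM went from 37.1% to 60.4%. miR159a.1 had 50794.9 TPM in three-leaf leaves and 18090.8 TPM at green-up and was 2.81-fold lower (2.80 to 2.82), and its share went from 26.6% to 9.34%. Scaled to the total without miR168, miR159a.1 was 1.78-fold lower and no longer called. The gain of miR168 was 46203.8 TPM and the loss of miR159 was 32704.1 TPM, while the sum of all known miRNAs was nearly level at 190862 and 193668 TPM.

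Without the miR168 family, the known sum was 120072 TPM in three-leaf leaves and 76674.2 TPM at green-up, 1.57-fold lower. Without both families it was 69276.7 and 58583.4 TPM, 1.18-fold lower. TPM are shares of all reads mapped to the genome. All known miRNAs together had 190862 TPM in three-leaf leaves and 193668 TPM at green-up, so most mapped reads lay outside them. How far the gain of miR168 by itself lowered the other values was not tested. Scaling by the median of ratios moved all log2 ratios up by 0.11, and scaling to the total without miR168 (miR168-free scaling) moved them up by 0.66. The total used for miR168-free scaling still holds miR159, so its shift also takes in the fall of that family. Of 76 calls among the named miRNAs and role family sums listed in both libraries, 25 ended under miR168-free scaling, and all 25 were lower calls.

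**Figure D2:**
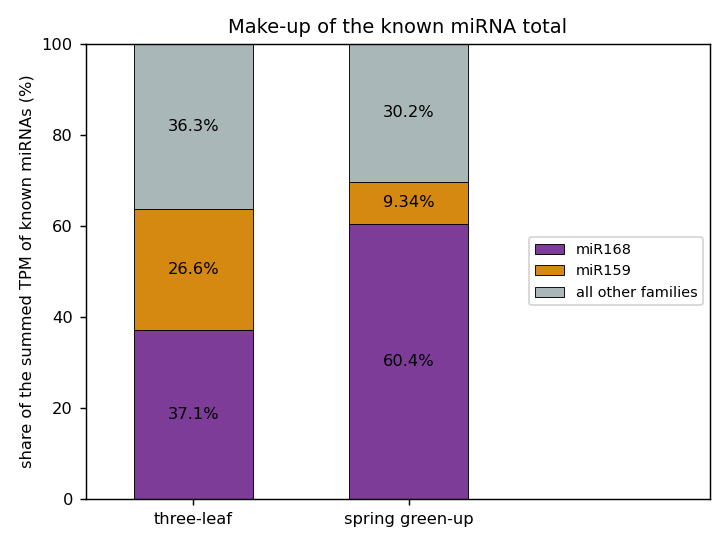
Share of the summed TPM of known miRNAs (y axis, percent, from 0) taken by miR168, miR159 and all other families in the 1 library of each stage. The miR168 block covers 37.1% in three-leaf leaves and 60.4% at spring green-up, and the miR159 block shrinks from 26.6% to 9.34%.

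Of the 8 most abundant known miRNAs in each library, 6 were shared. Below miR168 and miR159 the differences in TPM were smaller, but several ratios were further from level than that of miR168. miR7757-5p had 7700.7 TPM in three-leaf leaves and 5808.7 TPM at green-up. miR5048-5p had 5062.6 and 3172.5 TPM, miR5062a 4649.1 and 2493.4 TPM, and miR9674b-5p 4270.8 and 2375.9 TPM. These 4 lay within 2-fold, and under miR168-free scaling miR7757-5p turned to 1.19-fold higher while the others stayed lower, miR5048-5p by 1.01-fold. miR9662a-3p, with 5345.9 and 2269 TPM, was 2.36-fold lower (2.33 to 2.38), a call that ended under miR168-free scaling (log2 ratio -0.58). miR9773, with 1179.8 and 2631.6 TPM, was 2.23-fold higher (2.20 to 2.27) and entered the 8 most abundant at green-up.

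All 3 family sums of phase change and flowering were lower at green-up. miR156 targets SPL transcription factors and keeps plants in the juvenile phase, miR172 targets AP2-like factors that delay flowering, and miR5200 cleaves transcripts of the florigen FT in Brachypodium. Of 9 such miRNAs tested, 5 were lower, 2 were higher and 2 lay within 2-fold, against 27% lower and 19.8% higher of all known miRNAs tested. Of these 7 calls, 5 rested on a listed 0. The miR5200 family sum was 2669.2 TPM in three-leaf leaves and 669.1 TPM at green-up, 3.99-fold lower (3.91 to 4.07). miR5200a-3p had 2298.1 TPM in three-leaf leaves, 3789.9 in winter, 531.2 at green-up and 437.1 at jointing. miR5200-5p, from the other arm, had 371.1, 504.8, 137.9 and 149.2 TPM at the same stages, and its lower call ended under miR168-free scaling (1.71-fold). Both arms were higher in both libraries before spring than in both libraries after it.

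The miR156 and miR157 family sum was 1239.2 TPM in three-leaf leaves and 764.3 TPM at green-up, a difference of 1.62-fold (1.59 to 1.66) that stayed under the 2-fold line. Its main member, miR156a-5p, had 1145 and 673.4 TPM. Under miR168-free scaling the family sum was 1.03-fold lower and miR156a-5p 1.08-fold lower, both nearly level. The other members tested carried little. miR156h-3p had 86.4 TPM and miR157d 7.8 TPM in three-leaf leaves, and both were listed at 0 at green-up. miR156d-3p and miR157b-3p were listed at 0 in three-leaf leaves and had 69.7 and 21.2 TPM at green-up. miR172 was scarce in both libraries, with a family sum of 21.6 TPM in three-leaf leaves and 8.4 TPM at green-up, 2.57-fold lower (2.13 to 3.12), or 1.63-fold and not called under miR168-free scaling. At jointing its sum was 134 TPM. miR172a-5p had 13.6 TPM in three-leaf leaves and 8.4 TPM at green-up, and no other miR172 member was listed above 0 at green-up. miR172e-3p, the name for which the study verified an AP2-like target, had 8 TPM in three-leaf leaves and was listed at 0 at green-up. The green-up sum was thus miR172a-5p alone.

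miR319, which targets TCP transcription factors that limit leaf cell proliferation, had the largest ratio downward of the known miRNAs listed in both libraries and above 50 TPM in 1 of them. miR319b-3p had 2474.2 TPM in three-leaf leaves, 462.3 TPM in winter and 58.2 TPM at green-up, and was listed at 0 at jointing. It was 42.5-fold lower at green-up than in three-leaf leaves (40.0 to 45.2). The member miR319c, whose sequence overlaps that of miR319b-3p, was listed at 0 in three-leaf leaves and had 10.7 TPM at green-up and 207.2 TPM at jointing. The family sum was 2486.4 TPM in three-leaf leaves and 69.3 TPM at green-up, 35.9-fold lower (33.9 to 38.0). The sequences of miR159a.1 and miR319b-3p are alike, as the lines above show, yet the miR159 ratio was far smaller.

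Of the auxin families, 3 sums lay above and 1 lay below the three-leaf level. miR160 and miR167 target auxin response factors, miR393 targets the TIR1/AFB auxin receptors, and miR390 triggers the TAS3 small RNAs that act on further auxin response factors. Of 7 members tested, 1 was higher, 1 was lower and 5 lay within 2-fold, shares below the 19.8% and 27% of all known miRNAs. Under miR168-free scaling 4 were higher (miR160a-5p, miR167a, miR167e-3p and miR393-5p), none was lower and 3 lay within 2-fold, beside 78 of 233 known miRNAs higher and 41 lower. miR160a-5p had 146.7 TPM in three-leaf leaves, 51.3 in winter, 535.2 at green-up and 763.6 at jointing, and was 3.65-fold higher at green-up than in three-leaf leaves (3.50 to 3.80). miR167a had 2044.6 TPM in three-leaf leaves and 3190.6 TPM at green-up, a ratio of 1.56 (1.54 to 1.58). miR393-5p had 270.4 and 451.3 TPM, a ratio of 1.67 (1.61 to 1.73). miR390a-5p was the member that was lower, with 52.3 and 21.2 TPM, 2.47-fold (2.20 to 2.78), a call that ended under miR168-free scaling (1.57-fold).

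Of the 5 family sums of leaf form and growth, 4 lay above their three-leaf level. Of 10 members tested, 2 were higher, 3 were lower and 5 lay within 2-fold, shares near the 19.8% and 27% of all known miRNAs. miR164, which targets NAC factors of organ boundaries, had a family sum of 1114.1 TPM in three-leaf leaves and 2132.6 TPM at green-up, a ratio of 1.91 (1.88 to 1.95). miR165 and miR166, which target HD-ZIP III factors of the upper leaf side, together had 1220.5 and 2167 TPM, a ratio of 1.78 (1.75 to 1.80). Neither family sum passed 2-fold as deposited, and both did under miR168-free scaling, with ratios of 3.02 and 2.80. Their main members, miR164a and miR165a-3p, had nearly equal values in all 4 libraries, and whether an error in the table lies behind this was not tested. miR170 and miR171, which target GRAS factors, were nearly level, with 4049.5 and 4291.5 TPM. miR394, which targets an F-box mRNA, had 6 TPM in three-leaf leaves and 70.9 TPM at green-up, 11.8-fold higher (9.79 to 14.3). Its member miR394a had 5.1 and 41.4 TPM, and miR394b-3p was listed at 0 in three-leaf leaves and had 29.5 TPM at green-up. miR396, which targets growth-regulating factors, had a family sum of 1970.6 and 1724.9 TPM, lower by 1.14-fold, and its direction turned under scaling to the total without miR168.

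miR169 targets NF-YA subunits and miR444 targets MADS-box factors of monocots. The miR169 family sum was 517.4 TPM in three-leaf leaves and 451.1 TPM at green-up, and its direction turned under scaling to the total without miR168. Most of it was miR169g, with 411.1 and 404.1 TPM. miR169f-3p had 103.4 TPM in three-leaf leaves and 381.9 TPM in winter and was listed at 0 at green-up. In the other direction, miR169o-3p was listed at 0 in three-leaf leaves and had 47 TPM at green-up. Of 3 miR169 members tested, 1 was higher, 1 was lower and 1 lay within 2-fold, beside 19.8% higher and 27% lower of all known miRNAs. Both calls rested on a listed 0. miR444b.1 had 1345.9 and 1363.8 TPM, a ratio of 1.01 (0.996 to 1.03).

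Apart from miR168, the families that target the small RNA machinery were nearly absent. miR162, which targets the processing enzyme DCL1, was listed at 0 in three-leaf leaves and had 0.6 TPM at green-up, and miR403 was listed at 0 in both libraries. The opposite arm miR168-3p had 4674.7 TPM in three-leaf leaves and 7628.8 TPM at green-up. It moved with miR168a-5p, which had 66115.8 and 109366 TPM, so the ratio of the 3p to the 5p arm was 0.0707 and 0.0698.

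All 4 sums of the copper families lay above their three-leaf level. miR397 targets laccases, miR398 targets copper/zinc superoxide dismutases, miR408 targets plantacyanins, and miR528 is a monocot miRNA with copper protein targets. Of 4 members tested, 2 were higher, none was lower and 2 lay within 2-fold, against 19.8% higher and 27% lower of all known miRNAs. miR528-5p had 19 TPM in three-leaf leaves, 44.4 in winter, 114.4 at green-up and 426.7 at jointing, and was 6.02-fold higher at green-up (5.40 to 6.73). miR397a had 13.8 and 34.9 TPM, 2.53-fold higher (2.20 to 2.92). The miR398 family sum was 113.3 and 189.3 TPM, a ratio of 1.67 (1.58 to 1.76) that passed 2-fold under miR168-free scaling (2.63), and miR408 stayed at 1.4 and 2 TPM.

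Among nutrient families, 1 of 4 members tested was higher, 1 was lower and 2 lay within 2-fold, shares near those of all known miRNAs (19.8% and 27%). miR395, which targets sulfate transport and assimilation genes, had 21.6 TPM in three-leaf leaves and 9.4 TPM at green-up, 2.30-fold lower (1.92 to 2.76), or 1.46-fold and not called under miR168-free scaling. miR399, which targets the phosphate regulator PHO2, had 148.6 and 88.9 TPM. miR827, which targets SPX-domain genes, had 138.6 and 89.8 TPM and changed direction under scaling to the total without miR168. The higher member was miR2111a-3p, from a family linked to phosphate supply. It had 1385.5 TPM at green-up and was listed at 0 in each of the other 3 libraries. The other name of this family, miR2111a, was listed at 0 both in three-leaf leaves and at green-up.

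Of 5 triggers of phased small RNAs and of immune receptor (NLR) silencing that were tested, 1 was higher, 1 was lower and 3 lay within 2-fold, shares near the 19.8% and 27% of all known miRNAs. The lower one was miR2275b-5p, of a family known in grasses for phased small RNAs of anthers. It had 1568 TPM in three-leaf leaves and 1831.5 TPM in winter and was listed at 0 at green-up and at jointing. The other name of the family, miR2275b-3p, had 0.6 TPM in three-leaf leaves and was listed at 0 at green-up. Which of these arms acts as a trigger was not tested. miR482b, of a family that targets NLR mRNAs, had 1.1 TPM in three-leaf leaves and 13.2 TPM at green-up, 12-fold higher (7.85 to 19.8). The miR2118 family sum, of 16.5 and 11.4 TPM, and that of miR9863, which targets Mla-type receptors in barley, of 407.1 and 285.8 TPM, were lower within 2-fold, and both directions turned under scaling to the total without miR168.

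**Figure D3:**
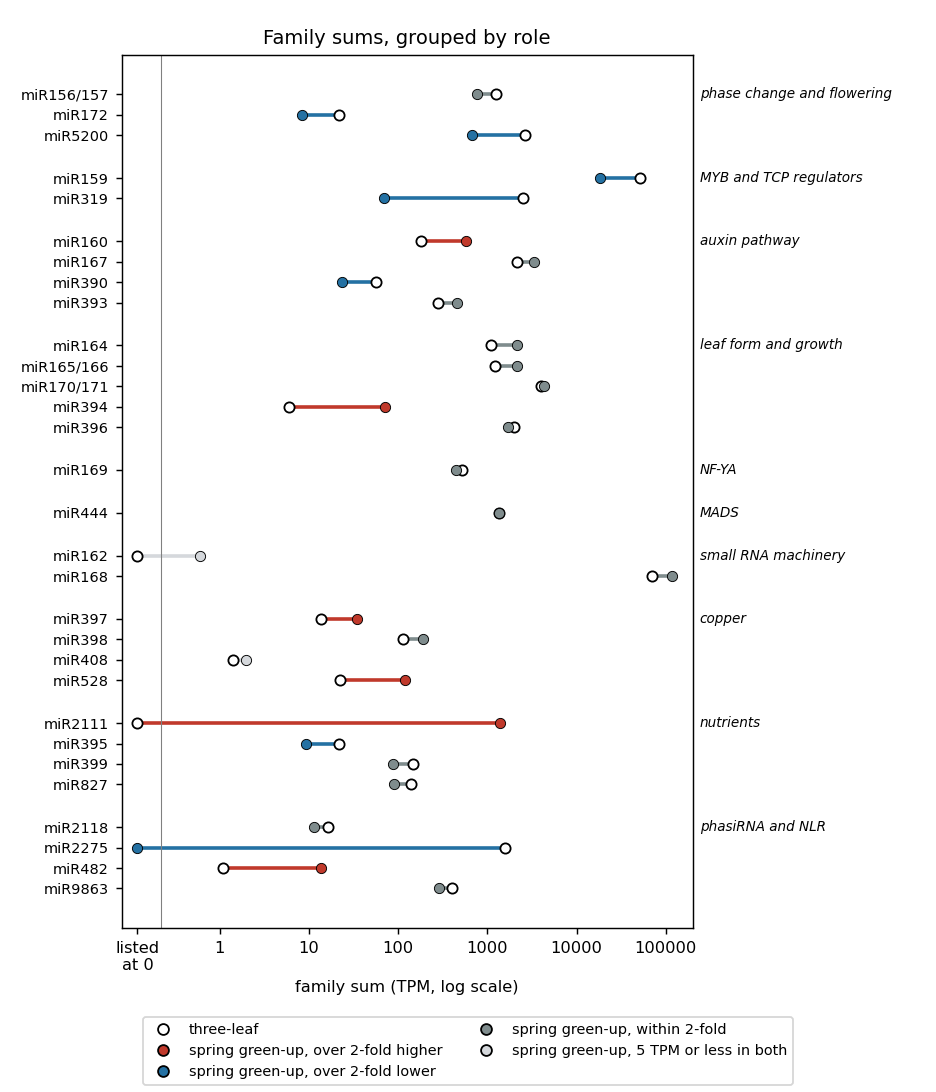
Family sums in TPM (x axis, log scale) in three-leaf leaves (open circles) and spring green-up (filled circles), grouped by role, with families listed at 0 set apart left of the grey line. Lines reach furthest for miR2275, which is listed at 0 at green-up, for miR2111, which is listed at 0 in three-leaf leaves, and for miR319.

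Outside these role lists, miR530 had the largest ratios upward of the known miRNAs listed in both libraries and above 50 TPM in 1 of them. miR530 is known in rice as a regulator of grain size. miR530-3p had 50 TPM in three-leaf leaves, 43.1 in winter, 987.2 at green-up and 1254.7 at jointing, 19.7-fold higher at green-up than in three-leaf leaves (18.5 to 21.1). miR530-5p had 77, 42.5, 467 and 1316.3 TPM at the same stages, 6.06-fold higher (5.75 to 6.41). Both arms were low in both libraries before spring and high in both after it. The 3p arm outnumbered the 5p arm at green-up, with a ratio of 2.11, but not in three-leaf leaves, where the ratio was 0.649.

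The other large ratios upward were smaller. miR5139 had 37.6 TPM in three-leaf leaves and 129.7 TPM at green-up. miR9672b had 949.1 and 2333.4 TPM, and miR9672a-3p, whose sequence overlaps it and may draw on the same reads, had 47.4 and 145.6 TPM. Their ratios were 2.46 (2.42 to 2.50) and 3.07 (2.85 to 3.31). miR9676-5p had 67.8 TPM in three-leaf leaves, was 2.35-fold higher at green-up (2.20 to 2.50) and had 602.5 TPM at jointing. miR2876-5p had 41 and 96.4 TPM and was back at 39.8 TPM at jointing.

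Downward, miR9774 had 269.5 TPM in three-leaf leaves and 55.1 TPM at green-up, 4.89-fold lower (4.57 to 5.24), and 443.7 TPM at jointing. miR9653b had 535.3 and 124.4 TPM, 4.30-fold lower (4.11 to 4.50), and 506.6 TPM at jointing. For both, the green-up library was the lowest of the 4. miR5168-5p had 101 and 17.7 TPM, 5.71-fold lower (5.07 to 6.43). miR6300 had 197.1 and 46.7 TPM, miR2916 198 and 60.8 TPM, and miR9652-3p 71.6 and 25.3 TPM. The call of miR9652-3p ended under miR168-free scaling (1.80-fold). The study set aside reads of ribosomal and transfer RNA before naming miRNAs. Its share of ribosomal RNA reads was larger in the three-leaf library than at green-up. Whether remaining reads of such RNAs lie behind any known or predicted name that was lower was not tested.

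**Figure D4:**
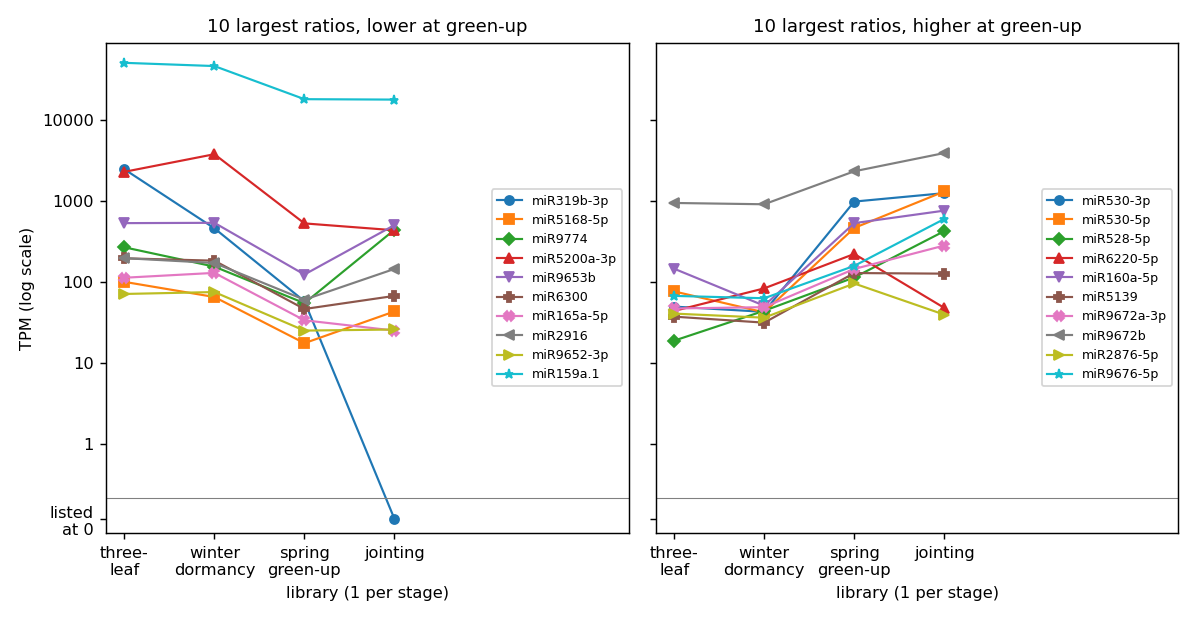
TPM (y axis, log scale) in each of the 4 libraries for the 10 known miRNAs with the largest ratio downward (left) and upward (right). The three-leaf and spring green-up libraries chose them, among names listed in both and above 50 TPM in at least 1. Lines join the values of 1 miRNA, and values listed at 0 lie below the grey line. miR319b-3p goes from 2474.2 to 58.2 TPM, and miR530-3p from 50 to 987.2 TPM.

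The families first listed in grasses and those of the wheat lineage were counted as lists. The grass series (miR1117 to miR1139, miR1436, miR1439 and miR5048 to miR5205) had 46 members tested, of which 4 were higher, 4 were lower and 38 lay within 2-fold, fewer calls than the 19.8% higher and 27% lower of all known miRNAs. Under miR168-free scaling 11 were higher and 2 lower. The median log2 ratio of the 44 listed in both libraries was 0.01, against -0.11 for all 172 known miRNAs tested and listed in both. In this series miR1436 had 275.1 and 264.2 TPM, miR1135 100.3 and 100.5 TPM, and miR5174a 169.6 and 181.7 TPM. The wheat-lineage series (miR9652 to miR9783) had 34 tested, of which 7 were higher, 9 were lower and 18 lay within 2-fold, shares like those of all known miRNAs, with a median log2 ratio of -0.27 over the 30 listed in both. No test was run on the difference between these lists.

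Many names were listed in a single library. At the three-leaf stage 43 known miRNAs were listed that had 0 at green-up, and they summed to 3133.8 TPM (1.64% of the known total). At green-up 44 were listed that had 0 in three-leaf leaves, with 2525 TPM (1.30%). Of these, 15 and 18 were also listed at 0 in the winter and jointing libraries. The smallest value listed above 0 was 0.5 TPM, or 10 reads, in three-leaf leaves and 0.4 TPM, or 7 reads, at green-up, so a listed 0 may stand for some reads.

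After miR2275b-5p, the most abundant known miRNAs listed at 0 at green-up were miR1509b with 400.3 TPM in three-leaf leaves, miR7767-5p with 312.9 TPM and miR4410 with 265.3 TPM. miR1509b was listed in no other library, and miR7767-5p returned at jointing with 161.2 TPM. miR5800 had 55.7 TPM and miR9668-5p 46.8 TPM, and both were listed again at jointing. After miR2111a-3p, those listed at 0 in three-leaf leaves were miR8742a with 397.5 TPM at green-up, miR8030-5p with 81.9 TPM, miR9748 with 75.4 TPM and miR5303c with 73.5 TPM. miR7697-5p had 70.8 TPM and miR3627a 51.2 TPM. Of these 6, only miR7697-5p was listed in another library, with 31 TPM in winter.

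The names were also counted by length and first base. Of all 222 tested, 19.8% were higher, 27% were lower and 22.5% were listed in 1 library only. Of 112 tested known miRNAs of 21 nt, 16 were higher, 23 were lower and 8.04% were listed in 1 library only. Of 56 of 24 nt, 15 were higher, 16 were lower and 41.1% were listed in 1 library only. At the other lengths this last share was 30.8% of 13 at 20 nt, 25.8% of 31 at 22 nt and 60% of 10 at 23 nt. The 24-nt names took 2.05% of the known TPM in three-leaf leaves and 2.83% at green-up. By first base, 8.89% of the 90 names with U, 20.4% of the 54 with A, 29.7% of the 37 with C and 48.8% of the 41 with G were listed in 1 library only. A 5′ U is the base that AGO1 prefers.

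Names of opposite arms did not always move together. Arms were paired by name, and no known miRNA was placed on a wheat hairpin, so a shared hairpin was not tested. Of 11 such pairs listed in both libraries, 5 had the same sign and 6 differed by more than 1 on the log2 scale. miR165a-5p had 113.5 TPM in three-leaf leaves and 33.9 TPM at green-up, 3.35-fold lower (3.06 to 3.66), while miR165a-3p had 1107 and 2133.1 TPM, a ratio of 1.93 (1.90 to 1.96). The sequence listed as miR165a-5p is of 23 nt and its 3p partner of 21 nt. For miR160a the 5p arm was higher and the 3p arm was level, at 36.3 and 34.9 TPM. For miR9652 the 5p arm had 596 and 755.7 TPM and the 3p arm was lower.

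Overlapping sequences limit the reading of single names. Known and predicted miRNAs that shared at least 18 nt with at most 2 mismatches formed 40 groups with 100 names, and 4 groups held both a higher and a lower name. The names miR6220-5p and miR6224a-5p stand for the same letters, and miR5174a differs within the 3′ part.
miR6220-5p: uCCGUUCCuaaauauaagucu
miR5174a: uCCGUUCCuaaauauuugucu
miR6220-5p had 44.2 TPM in three-leaf leaves and 223.1 TPM at green-up, whereas miR6224a-5p had 185 and 66.4 TPM, 2.79-fold lower and 1.77-fold under miR168-free scaling. Summed with miR5174a the group had 398.8 and 471.2 TPM, a ratio of 1.18 (1.15 to 1.22). The same held for miR9783 and miR9783-3p, which are identical. In the libraries compared, miR9783 had 32.3 TPM in three-leaf leaves and was listed at 0 at green-up, and miR9783-3p was listed at 0 in three-leaf leaves and had 16.5 TPM at green-up, while both were listed at jointing. For miR5139 and miR8155 the sum was 52.4 and 134.5 TPM and still 2.57-fold higher (2.39 to 2.76). For the miR319 group the sum of 2474.2 and 68.9 TPM stayed 35.9-fold lower.

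Predicted miRNAs, found by hairpin folding, were lower at green-up in sum and in count. Their summed TPM was 5328.8 in three-leaf leaves and 2933.4 at green-up. Of 56 tested, 8 (14.3%) were higher, 18 (32.1%) were lower and 30 lay within 2-fold, and 3 of the higher and 8 of the lower calls rested on a listed 0. Scaling to the total without miR168 gave 15 higher and 11 lower. Of the predicted names, novel_miR381, novel_miR652 and novel_miR1153 overlap the known miR1136. The median log2 ratio of the 55 listed in both libraries was -0.12. Of 29 tested with a listed miRNA* strand, the passenger strand of the hairpin, 7 were higher and 6 were lower. Of 27 without one, 1 was higher and 12 were lower. All 27 were listed in three-leaf leaves, the lowest at 11 TPM, and none was listed at 0 there. This class thus held no name that could be called higher from a listed 0. Its split cannot be set against that of the other class, and it supplied 12 of the 18 lower calls.

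The sequences below are those of the most abundant predicted miRNAs and of the largest ratios, with the seed in capitals, each from a hairpin placed on the wheat genome of Ensembl Plants release 31.
novel_miR1202: tTCTTCAAgtactccactttt
novel_miR1356: tTCTTCAAgtactccacttt
novel_miR1560: tAAACCTTcacaaattcccttg
novel_miR1620: gGCCTATTagctcagctggt
novel_miR2079: tGGTCTGTgtttgtttcaaac
novel_miR523: tACGGCCTgatgacatccacg
novel_miR390: tCCGCGATcatcacgaccaaa
novel_miR259: gAGATGACaccgacgccgatc
novel_miR4191: cACGATACtcttggacgattc
No annotation of that build was used here, so the genes at these hairpins are not given.

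novel_miR1202, from a hairpin on chromosome 6A (54567630 to 54567708, plus strand), was the most abundant predicted miRNA. It had 2359.8 TPM in three-leaf leaves and 1208.2 TPM at green-up, 1.95-fold lower (1.92 to 1.98) and just short of a call. novel_miR1356, from chromosome 6D (50938062 to 50938139, minus strand), has the same letters without the last base. It had 62.5 and 29.5 TPM, 2.12-fold lower (1.91 to 2.35), and the interval of novel_miR1202 lies within its own, although the names fall on opposite sides of the 2-fold line. Under miR168-free scaling novel_miR1356 was 1.34-fold lower and not called. The summed ratio of both was 0.511 (0.503 to 0.519).

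novel_miR1560, from chromosome 7D (154998364 to 154998643, plus strand), had 757.2 TPM in three-leaf leaves and 777.6 TPM in winter and was listed at 0 at green-up and at jointing. It was the most abundant predicted miRNA listed at 0 in 1 of both libraries. novel_miR1576 had 39.9 TPM in three-leaf leaves, novel_miR1826 27 TPM, novel_miR1306 24.4 TPM and novel_miR1786 14.9 TPM, and all 4 were listed at 0 at green-up. Of these, novel_miR1306 was listed again at jointing, with 8.7 TPM.

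Among those listed in both libraries, novel_miR2079 had the largest ratio downward. Its hairpin lies on scaffold IWGSC_CSS_5DS_scaff_2730070, and it had 49.3 TPM in three-leaf leaves and 8.4 TPM at green-up, 5.87-fold lower (4.95 to 7.02). novel_miR1620 had 232 and 45.5 TPM, 5.10-fold lower (4.73 to 5.50). novel_miR2129 had 42.6 and 12.4 TPM, novel_miR193 24.6 and 8.6 TPM, novel_miR929 18.5 and 7.7 TPM, and novel_miR1419 33 and 13.9 TPM. These 4 were lower by 2.37-fold to 3.44-fold. The interval of novel_miR929 reached down to 1.97-fold and so spanned the 2-fold line. Under miR168-free scaling novel_miR193, novel_miR929 and novel_miR1419 lay within 2-fold, lower by 1.51-fold to 1.82-fold.

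Upward, novel_miR523 had 52.3 TPM in three-leaf leaves, 87.5 in winter, 159.5 at green-up and 377.8 at jointing, 3.05-fold higher at green-up (2.84 to 3.27). Its hairpin lies on chromosome 3B (200808871 to 200808997, plus strand). novel_miR390, from chromosome 2B (323433322 to 323433461, minus strand), had 101.2 and 246.9 TPM, 2.44-fold higher (2.32 to 2.57). It is a name of the predicted list and not a member of the conserved miR390 family. novel_miR259, from chromosome 2A (143411198 to 143411286, minus strand), had 6.5 and 19.1 TPM. novel_miR1613 had 1.6 and 6.2 TPM, and novel_miR669 had 4.7 and 12.9 TPM. novel_miR1875, with 17.9 and 31.3 TPM, stayed within 2-fold as deposited and was 2.75-fold higher under miR168-free scaling.

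Few predicted miRNAs were listed at green-up and at 0 in three-leaf leaves. novel_miR2567 had 11.6 TPM at green-up and 12.1 TPM in winter. novel_miR4191, from chromosome 4B (163764593 to 163764733, plus strand), had 11.5 TPM and novel_miR4740 had 7.3 TPM, and both were listed at 0 in the other 3 libraries. novel_miR3791 with 1.2 TPM and novel_miR3417 with 0.3 TPM lay under 5 TPM in both libraries and were not called.

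**Figure D5:**
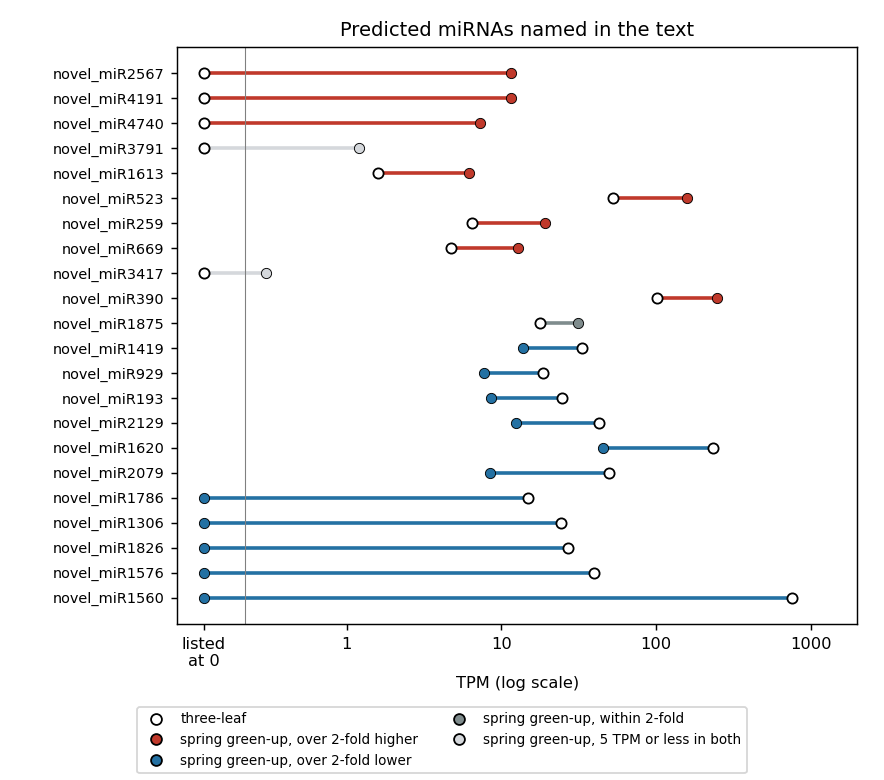
TPM (x axis, log scale) of the predicted miRNAs with the largest ratios or the highest levels beside a listed 0, in three-leaf leaves (open circles) and spring green-up (filled circles), with values listed at 0 set apart left of the grey line. novel_miR1560 spans the widest distance, from 757.2 TPM to a listed 0, and novel_miR523 and novel_miR390 are the most abundant of those that were higher.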

How the data were processed

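Leaf small RNAs of 18 to 30 nt were sequenced by the study, 1 library per stage from RNA pooled over 3 replicates. The authors matched clean reads to plant miRNAs of miRBase release 21 with at most 2 mismatches and predicted further miRNAs with MIREAP on the genome of Ensembl Plants release 31. The deposited values are RPM (reads per 1000000 mapped reads, rounded to 1 decimal), called TPM by the authors. The deposited tables give no reads, so reads were estimated as value times mapped reads given by the study. Repeated entries of miR531 and miR5050 with equal values were counted once, leaving 371 names of 373. For calls, values under 3 reads (0.148 and 0.165 TPM) were raised to 3 reads. Intervals are exact conditional binomial intervals. They were tried on simulated Poisson counts, the model they assume, which hold no spread from PCR copies or between plants.

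Known sequences came from the study's list and predicted ones from the deposited table. Named miRNAs were the 8 most abundant per library, the 10 largest ratios each way above 50 TPM, the 8 most abundant listed at 0 in 1 library, the 6 and 5 such predicted ones (above 5 TPM for ratios), and each role family's sum, top member and members above 50 TPM, the few needed being printed. novel_miR1202, novel_miR1356, miR6224a-5p, miR8155 and the miR319c, miR160a-3p, miR482b, miR157b-3p, miR157d and miR169o-3p values were added for overlaps, arms or lists. Comparison, lists and rules were chosen with earlier results of these data known. Python 3.11.15, pandas 2.3.3 and scipy 1.17.1 were used.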

Additional observations from a re-analysis of the deposited data

How the results depend on the processing

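Counts of called miRNAs depended on the level, the listed zeros and the scaling. With no level filter 69 known miRNAs were higher. With a level of more than 50 TPM the known counts were 19 higher and 28 lower and the predicted counts 2 and 4. Scaled to the total without miR168, they were 78 and 41 for known and 15 and 11 for predicted miRNAs. With listed zeros left out they were 22 and 32, and 5 and 10. With lengths of 20 to 22 nt 26 known miRNAs were higher and 39 lower, since fewer were tested. At a fold of more than 3, 5 predicted miRNAs were higher and 11 lower. The other settings (pseudocounts of 1 and 0.1 TPM, the total of all listed miRNAs, the median of ratios, a fold of more than 1.5, whole intervals beyond 2-fold, overlapping sequences summed, family sums) stayed within 1.5 times the counts reported.

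Of 59 single log2 ratios of named miRNAs and family sums under 5 settings, 0 called ones turned direction. None could do so, because a call needs a log2 ratio beyond 1 and the largest scaling shift was 0.66. A pseudocount cannot change the sign either. Of 76 calls among named miRNAs and role family sums listed in both libraries, 25, all lower, ended when scaled to the total without miR168, miR159a.1 and miR9662a-3p among them. Of those 59, the family sums of miR169, miR2118, miR396, miR827 and miR9863 changed sign, each only when scaled to the total without miR168, to 0.46, 0.12, 0.46, 0.03 and 0.15 on the log2 scale. Family sums of the grass and wheat-lineage series were not among the 59. Some of these also turned under that scaling, as did miR9674, with 6420.9 and 4168.9 TPM and a scaled ratio of 1.02. No paired analysis was possible because each stage has 1 pooled library, and no replicate could be left out for the same reason. At the depth of the three-leaf library, counting error alone spread a value of 5 TPM from 4.10 to 6.10 TPM.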

Other observations

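Values of miR164a and miR165a-3p, which have different seeds and sequences, were close in all 4 libraries. miR164a had 1110.5 TPM at the three-leaf stage, 2422.5 in winter, 2130.8 at green-up and 952.5 at jointing, and miR165a-3p had 1107, 2429.2, 2133.1 and 963 TPM. This pair was picked after its values were seen, and whether an error in the table lies behind it was not tested. Names with identical letters differed far more than counting error within a library, as miR6220-5p with 223.1 TPM and miR6224a-5p with 66.4 TPM at green-up.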
